A study of Canis lupus familiaris with 77 samples.

Results

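Bone marrow was compared with the solid tissues of the dog miRNA tissue atlas, across all miRNAs and in both directions. The samples were chosen by their tissue label alone: the 5 bone marrow samples against the 66 samples of the 14 solid tissues, out of 76 libraries in all. The solid tissues were brain, heart, skeletal muscle, sciatic nerve, lung, liver, kidney, pancreas, duodenum, jejunum, ileum, colon, thymus and testis. Colon had 4 samples, sciatic nerve had 2, and the remaining 12 had 5 each. A further nerve sample, pooled because of low RNA yield, was not used here. The 5 plasma libraries took no part in the comparison. The samples came from untreated male Marshall beagle dogs of 10 months, and neither group carried a treatment or a genetic change.

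Several features of the material ran, or may have run, together with the groups. The animals were perfused with buffered saline before the solid organs were taken. Marrow is labelled by volume, at 2 mL, and the study does not state whether it was taken before or after perfusion, or how much blood it held. Per the study's methods, marrow RNA was extracted with a phenol reagent and organ RNA on magnetic beads, although the labels give the same preparation for both. Reads on miRNAs numbered from 162310 to 239023 in the marrow libraries and from 157871 to 7896424 in the solid ones, with a median of 1390925. RNA integrity, which the study's supplement describes as low in marrow, is not given per sample in the labels. Tissue, any difference in perfusion, extraction and RNA integrity therefore cannot be told apart in the differences below. Depth was made equal by thinning each library to 158069 reads: 72 miRNAs were then higher and 82 lower, and the medians of the erythroid and miR-223 lists were 4.37 and 8.202 on the log2 scale with each member still called. A tissue sample is a mixture of cells, so more cells of a type and more RNA per cell cannot be told apart either. The labels carry no dog number and the same animals gave several tissues, so the p-values measure the spread between samples and take no account of the animal.

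An miRNA is a short RNA that guides a silencing complex to mRNAs with a matching site and lowers their translation or stability. Bone marrow is the site of blood formation in the adult, where stem and progenitor cells give rise to red cells, granulocytes, monocytes, platelets and lymphocytes within a stroma of vessels, fat and reticular cells. Several miRNAs are characteristic of these lineages: the miR-144 and miR-451 cluster is induced by GATA1 as red cells mature, miR-223 is the main granulocyte miRNA, and miR-142, miR-146a, miR-150 and miR-155 are made by blood cells in general or by lymphocytes. Most hairpins yield a mature miRNA from each arm, called 5p and 3p, of which 1 usually dominates.

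Counts are given as RPM, the reads of an miRNA scaled to 1000000 reads on miRNAs in the library, and an miRNA with no listed reads in a sample was taken as 0. Reads of 382 of the 650 miRNAs were found in marrow, and 211 were read in each of the 5 marrow samples. Differences were tested with edgeR, as the marrow mean minus the mean of the 14 tissue means on the log2 scale, so that each solid tissue weighed the same. The edgeR p-values rest on the spread between samples within tissues, not on that between the 14 tissues. Of the 473 miRNAs tested, 83 (17.5%) were higher in marrow and 134 (28.3%) were lower at an adjusted p below 0.05, together 45.9%. Counts of list members below are to be read against these shares. A fitted change of more than 5-fold was reached by 31 of those higher (6.55%) and by 79 of those lower (16.7%). Of the lower miRNAs, 21 had no read in any marrow library. For these the fitted change is no measure of size, and a lower limit is given below, computed against 3 reads over the 5 marrow libraries together, or 3.02 RPM. The balance of the directions depended on scaling: with library totals in place of the TMM factors 104 miRNAs were higher and 93 lower, with RLE factors 107 and 97, and with DESeq2 105 and 99. The higher share was 38.2% with TMM, 52.8% with library totals, 52.5% with RLE and 51.5% with DESeq2. The median log2 change of the tested miRNAs was −1.06 with TMM, −0.73 with library totals and −0.71 with RLE. Small changes are best read against that median.

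A second test was an exact rank-sum test over the samples, two-sided, called where the ratio of mean RPM also exceeded 5 in either direction. By that test 24 of 649 miRNAs (3.7%) were higher in marrow and 84 (12.9%) lower. The smallest p this test can give for 5 against 66 samples without ties is 1.54e-07. The test treats the 66 samples as independent, although they are grouped by tissue, so its p-values can be too small. The lowest marrow sample lay above the highest of the 66 solid samples for 11 miRNAs (1.69%), and the highest marrow sample lay below the lowest solid sample for 6 (0.924%). The 11 above were miR-223, miR-223-5p, miR-451, miR-144-5p, miR-424-5p, miR-19b, miR-374a, miR-374b, miR-106b-3p, miR-371 and miR-8865. The 6 below were miR-30b, miR-30c, miR-30e, miR-380, miR-889 and miR-200b-3p. The latter 3 had no read in marrow. Their lowest solid samples stood at 1.34, 1.54 and 0.859 RPM, under the 3.02 RPM that 0 marrow reads allow, so no order against those samples can be read. The names in both sets that the naming rule does not cover were chosen after their values were seen.

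**Figure D1:**
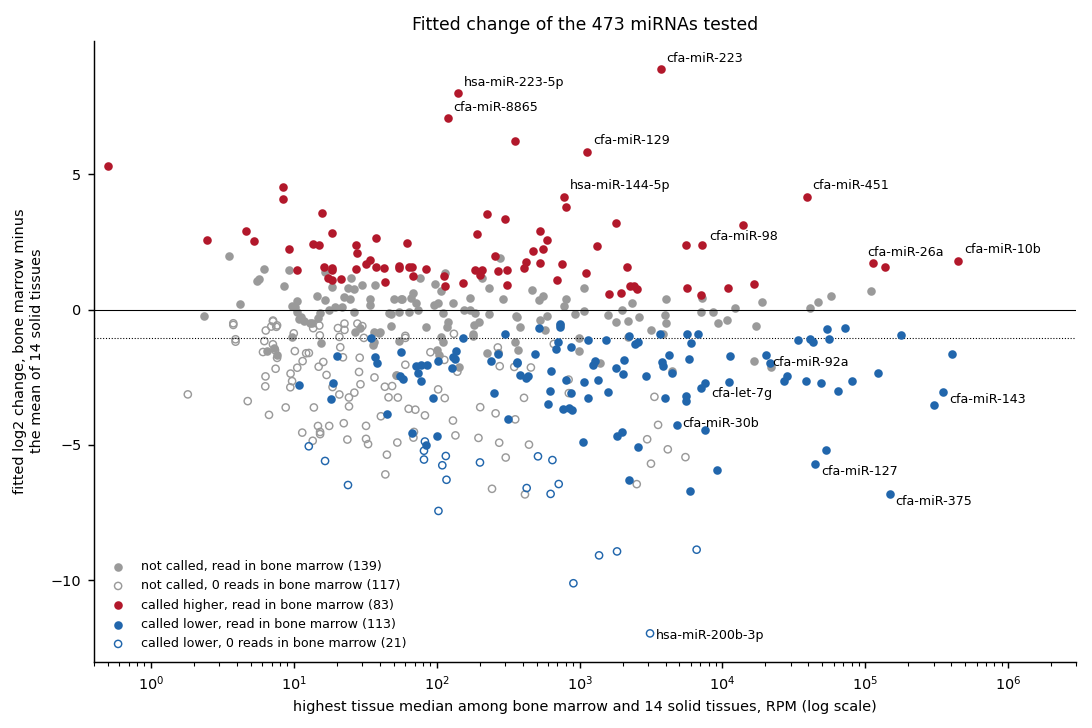
Fitted log2 change of the 473 tested miRNAs, bone marrow minus the mean of 14 solid tissues, against the highest tissue median in RPM on a log scale. Red points were called higher (83), blue lower (134), open circles had 0 reads in marrow and the dotted line is the median change of −1.06. miR-223 stands highest at 8.89, and many of the lowest points are open.

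The marrow profile was led by miR-10b. Its levels were 217171, 319237, 300029, 321393 and 327584 RPM in the 5 marrow samples, so about 31.9% of the reads of the median sample came from it. It is encoded in a HOX cluster and was higher in marrow than the mean of the solid tissues (log2 change 1.78 ± 0.34 SE, edgeR adjusted p = 9.97e-06), yet kidney (median 445638 RPM), skeletal muscle (416863) and testis (381149) stood above marrow and brain stood at 1828. With the solid samples taken as 1 group, so that tissues were not weighed alike, cfa-miR-10b changed by 0.19 and was not called. miR-26a came second with 136689, 192362, 137638, 115772 and 158354 RPM. Its highest solid sample had 134657 RPM, so the lowest marrow sample fell inside the solid range, while marrow was called higher than each of the 14 tissues taken alone (log2 change against their mean 1.58 ± 0.18, adjusted p = 3.55e-11). The next in order were miR-10a at a median of 70759 RPM, miR-486 at 65253, miR-451 at 38793, miR-191 at 34075, miR-181a at 29941, miR-30a at 21726, miR-126 at 19926 and miR-186 at 18992. Of these, miR-10a, miR-191, miR-126 and miR-186 did not pass the test, with log2 changes between 0.04 and 0.70. miR-30a was lower by the test (−0.67 ± 0.26, adjusted p = 0.0284), but that call was lost in 55 of 93 other settings. The marrow level of miR-181a was called lower as well (−0.95 ± 0.31, adjusted p = 0.00998), a call lost in 7 settings, and the exact rank-sum test over the same samples gave an adjusted p of 1.00 for it. For 24 of the 123 miRNAs above 100 RPM in marrow, marrow had the highest median of the 15 tissues.

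The erythroid miRNAs were higher in marrow throughout: 4 of the 4 tested passed, with a median log2 change of 3.98. miR-451, which matures through Argonaute 2 without Dicer and marks the red cell lineage, was at 53472, 30491, 49970, 30394 and 38793 RPM. Every marrow sample lay above the highest solid sample, a lung sample at 9124 RPM, and the solid tissue medians ran from 420 RPM in ileum to 6236 in liver. The change was 4.17 ± 0.29 on the log2 scale (adjusted p = 2.12e-19), and the ratio of means was 18.3. The neighbouring gene on the same chromosome, miR-144, is transcribed with it. miR-144-5p had 1140, 778, 1502, 619 and 704 RPM in marrow and at most 416 in a solid sample, with a change of 4.16 ± 0.35 (adjusted p = 2.85e-16). The other arm, miR-144, had 1374, 807, 1032, 582 and 625 RPM, and the groups overlapped through liver samples that reached 665 RPM. Its change was 3.79 ± 0.34 (adjusted p = 4.99e-15).

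miR-486 behaved differently from the other erythroid members. This miRNA lies in the ankyrin 1 gene and is made by both red cells and striated muscle, and the deposited entry joins both its arms. Marrow had 90081, 65253, 93202, 52663 and 61799 RPM, above the mean of the tissues (1.71 ± 0.42, adjusted p = 0.0005) but below heart, where the median was 113425 RPM. Marrow was higher than 7 of the 14 tissues and lower than 1. With the solid samples as 1 group cfa-miR-486 changed by 0.28 and was not called. Summed over the 4 erythroid entries, marrow held from 84257 to 146066 RPM and the solid samples from 935 to 274996, with heart highest at a median of 121079. Without miR-486 the remaining entries each had their highest tissue median in marrow.

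**Figure D2:**
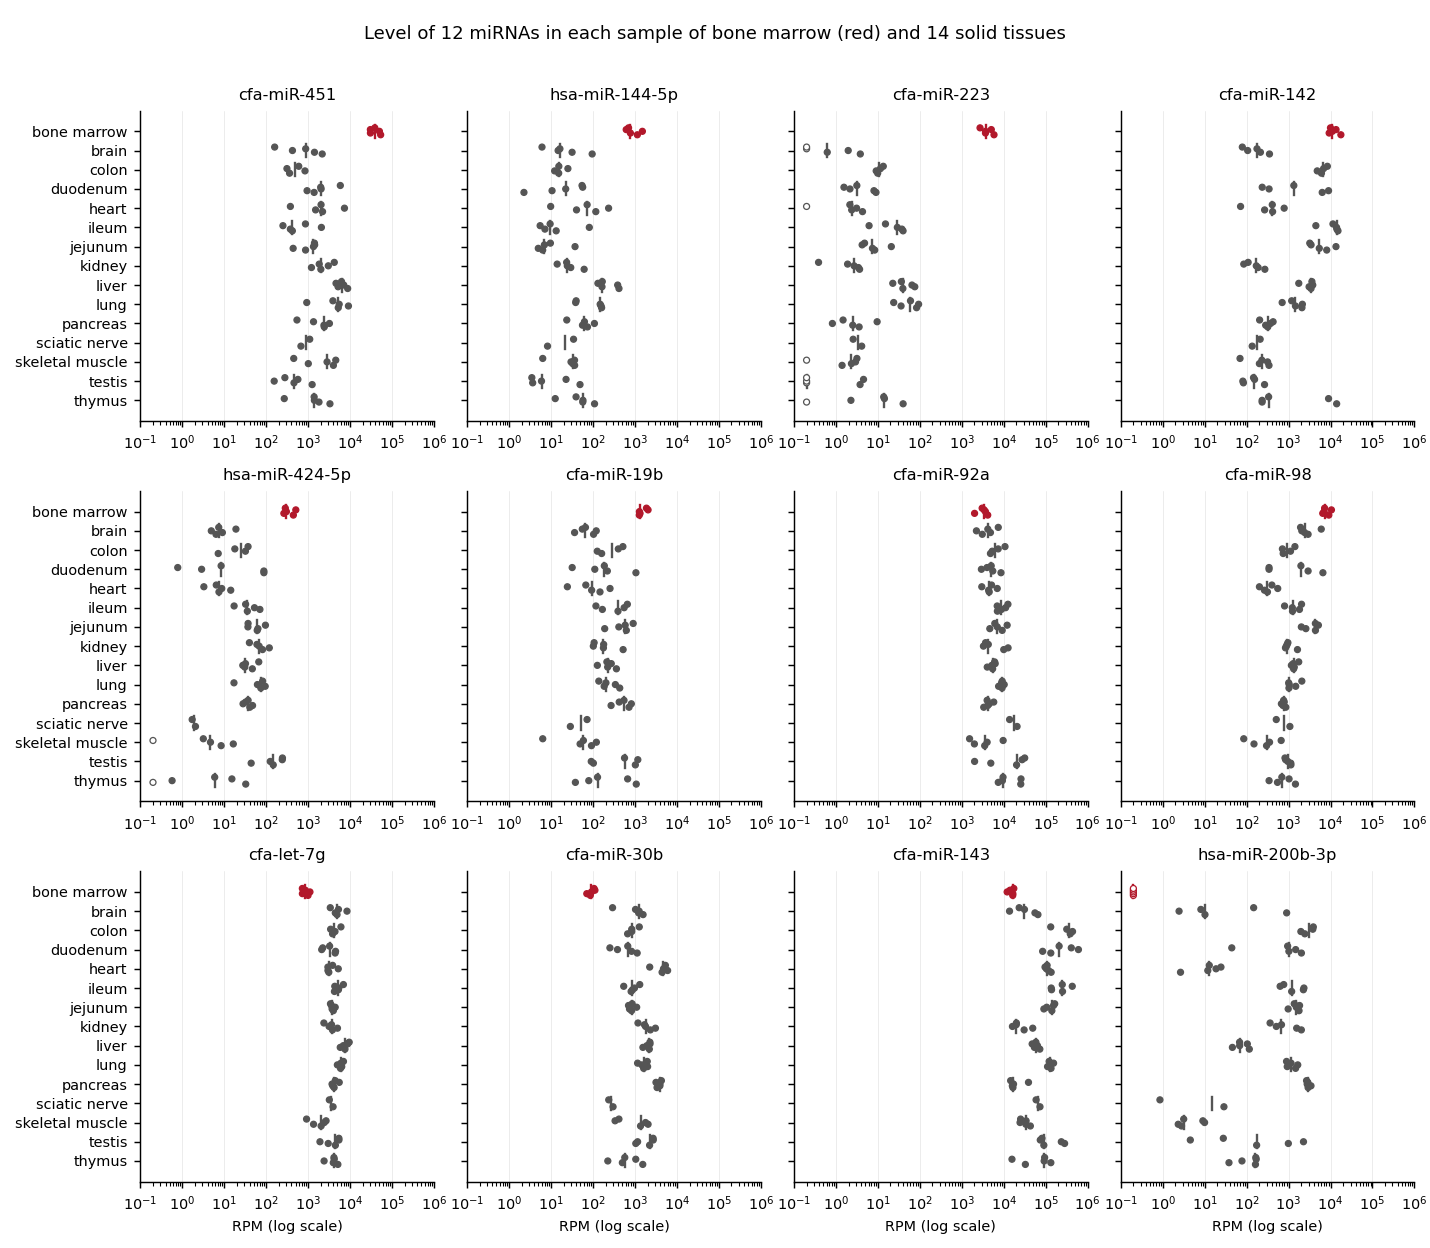
RPM of 12 miRNAs on a log scale, 1 point per sample and a bar at each tissue median, with bone marrow in red at the top and open circles at the left edge for 0 reads. The marrow points of miR-451, miR-144-5p, miR-223, miR-424-5p and miR-19b lie right of every solid sample, and those of miR-30b lie left of them. Those of miR-142 fall among ileum, jejunum and thymus samples, except marrow sample 1 at 17682 RPM, which lies right of every solid sample.

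miR-223 showed the largest rise of the 473 miRNAs. It is a granulocyte and monocyte miRNA that restrains neutrophil production and activity. Its levels were 5871, 3678, 3686, 5062 and 2727 RPM in marrow, while the highest solid sample was a lung sample at 93.6 RPM. Lung had the highest solid median, 59.98 RPM, followed by liver at 39.5, and the testis median was 0. The log2 change was 8.89 ± 0.31 (adjusted p = 5.60e-35), and marrow was called higher than each of the 14 tissues. The 5p arm followed at lower levels, 142, 79.5, 141, 201 and 78.2 RPM in marrow against at most 8.23 in a solid sample, with a change of 7.99 ± 0.32 (adjusted p = 1.76e-26).

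The general leukocyte miRNAs were split. Of the 8 tested, 4 were higher, 1 was lower and 3 did not pass, with a median log2 change of 0.83. miR-142, made by nearly all blood cell lineages, had 17682, 9292, 11079, 13552 and 9988 RPM in marrow. The ileum median was higher, at 13936 RPM, and thymus samples ran from 234 to 14022 RPM. The change against the mean of the tissues was 3.14 ± 0.34 (adjusted p = 3.80e-12), but marrow was called higher than 8 of the 14 tissues. miR-142-3p gave a like change of 3.18 ± 0.44 (adjusted p = 1.23e-08). For this arm the rank-sum test, which counts each solid sample, did not pass (adjusted p = 0.0780). miR-146a, a brake on NF-κB signalling, was at 4325, 4121, 4329, 7961 and 6723 RPM, second to ileum at 5536, and rose by 2.40 ± 0.31 (adjusted p = 1.54e-09). With the solid samples as 1 group the calls of cfa-miR-142 (1.62), hsa-miR-142-3p (0.71) and cfa-miR-146a (1.29) were lost.

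The lymphocyte-related members stood lower in the order of tissues. cfa-miR-155, induced on lymphocyte and macrophage activation, had a marrow median of 579 RPM, the fifth highest median, behind ileum at 2264 RPM. Its change of 0.86 ± 0.35 passed (adjusted p = 0.0364), but the call was lost in 10 of 93 other settings, in 1 of them with the opposite sign. Among these were the fits without sciatic nerve sample 2 (adjusted p = 0.0715) and without marrow sample 1 (0.0749), 4 (0.0954) or 5 (0.0551). miR-150, a marker of mature lymphocytes, had 297 RPM in marrow against 1067 in ileum, and its change of 0.80 ± 0.38 did not pass (adjusted p = 0.0809), although it was called higher in 49 of 93 other settings. miR-342 did not pass on either arm. miR-146b was lower than the mean of the tissues (−1.22 ± 0.51, adjusted p = 0.0440), a call lost in 62 of 93 settings, with testis at 5983 RPM and marrow at 259. The summed leukocyte level was 15183 to 24730 RPM in marrow and 250 to 27903 in solid samples, highest in ileum.

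The miR-17-92 cluster and its paralogs promote proliferation of progenitors and B cells. Of 14 members tested, 8 were higher in marrow, 1 was lower and 5 did not pass, with a median change of 0.85. With library totals, RLE factors or DESeq2 10 of the 14 were higher, and miR-20a, not called here, was called in 55 of 93 settings. miR-19b was the member set furthest apart. It had 1269, 1322, 1275, 2052 and 1881 RPM in marrow against at most 1170 in a solid sample, a testis sample, and its change was 2.33 ± 0.35 (adjusted p = 6.17e-08). miR-18b (1.82), miR-18a (1.53), miR-106b (1.47), cfa-miR-19a (1.25), miR-17-5p, entered as cfa-miR-106a (0.90), miR-25 (0.80) and miR-93 (0.63) were the other higher members on the log2 scale. The call of cfa-miR-19a was lost without marrow sample 1 (adjusted p = 0.0754). With the solid samples as 1 group the calls of cfa-miR-18a, cfa-miR-106b, cfa-miR-19a, miR-17-5p, cfa-miR-25 and cfa-miR-93 were lost. That of cfa-miR-19b held in each of the 93 settings. miR-106b-3p, the 3p arm of the miR-106b hairpin and no member of the list, had 418 to 665 RPM in marrow against at most 325 in a solid sample, and marrow was higher than each of the 14 tissues. It was the more abundant arm in marrow, with a median of 102 reads against 39 of the 5p arm. The same held in solid samples. The median log2 ratio of 5p to 3p was −1.38 in marrow and −0.90 in solid samples, and the test did not pass (exact rank-sum adjusted p = 0.306).

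miR-92a went the other way. Although it is made from the same transcript as miR-19b, it had 4159, 2021, 3675, 3412 and 3063 RPM in marrow, and marrow had the lowest median of the 15 tissues. Testis was highest at 20279 RPM and skeletal muscle was the lowest solid tissue at 3524. The change was −1.68 ± 0.30 (adjusted p = 3.68e-06), and marrow was lower than 13 of the 14 tissues and higher than none. Several members of these clusters are near-identical in sequence and a read could be counted for more than 1 of them, so the values of single members are uncertain.

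The X-linked miRNAs miR-424, miR-450a, miR-450b and miR-542 were higher together. This cluster is induced in monocyte differentiation, where miR-424 limits cell cycle genes. Of 6 members tested, 5 were higher, none was lower and the median change was 2.49, while miR-503 had too few reads for the test. miR-424-5p had 444, 264, 303, 508 and 285 RPM, above the highest solid sample, which was a testis sample at 244 RPM. Its change was 3.35 ± 0.32 (adjusted p = 9.88e-14). miR-542 had 185, 100.4, 114, 270 and 124 RPM and a change of 2.79 ± 0.33. miR-450b had 400.5, 213, 303, 354 and 262 RPM and a change of 2.59 ± 0.39. For both, the testis median was higher than that of marrow, at 192 and 592 RPM, and lung came next among the solid tissues. miR-450a rose by 1.46 ± 0.40 and the miR-424 3p arm by 2.40 ± 0.49. With the solid samples as 1 group the calls of cfa-miR-450a and cfa-miR-450b were lost. Those of hsa-miR-424-5p and cfa-miR-542 held in each of the 93 settings.

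The progenitor list, named for miRNAs of early blood-forming cells, showed no common direction. Of 6 members tested, 2 were higher, 2 lower and 2 did not pass, where 17.5% of all tested miRNAs were higher and 28.3% lower. miR-196b, from a HOX cluster, had 105 to 175 RPM and rose by 2.22 ± 0.39, though colon (558 RPM) and ileum (393) were higher. miR-125b (−2.08 ± 0.40) and miR-130a (−0.98 ± 0.23) were lower. hsa-miR-126-3p, an arm of the endothelial and stem cell miRNA miR-126, was barely above the threshold (0.53 ± 0.23, adjusted p = 0.0496). That call was lost in 19 other settings, among them the fits without marrow sample 1 (adjusted p = 0.0727), 2 (0.245) or 5 (0.123), and by a small margin those without duodenum sample 1, lung 2, ileum 2, 4 or 5, sciatic nerve 2, jejunum 3 or heart 4 (0.0505 to 0.0550). The dominant arm, cfa-miR-126, did not pass (0.30 ± 0.25), with 19926 RPM in marrow against 46480 in lung. The median change of this list was −0.23, but 0.30 with library totals. In the miR-181 family, linked to lymphocyte development, 1 of 4 was lower, near the 28.3% of all tested miRNAs. Its median of −0.49 became 0.06 with library totals.

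Some of the largest rises belonged to miRNAs that are not usual blood cell markers. miR-8865, an miRNA named from dog alone, had 136, 62.8, 168, 68.8 and 120 RPM in marrow and at most 11.9 in a solid sample. Its change was 7.10 ± 0.38 (adjusted p = 3.69e-22), and no solid tissue had a median above 4.12 RPM. Of the 18 dog-only miRNAs of the same naming series that were tested, 3 were higher and none lower, a share near the 17.5% of all tested miRNAs. The others were miR-8859a (1.58 ± 0.36) and miR-8884 (1.02 ± 0.26), each with a median under 100 RPM. miR-374b had 616, 339, 405, 555 and 524 RPM against at most 183 in a solid sample (2.92 ± 0.21, adjusted p = 2.51e-19), and its neighbour in name miR-374a gave 289 to 438 RPM against at most 260 (1.77 ± 0.23). miR-371 lay above every solid sample at 15.9 to 27.0 RPM, on 19 marrow reads in all. miR-628, with a marrow change of 1.97 ± 0.27, was also among those called, a call lost with the solid samples as 1 group.

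Another pair of hairpins is better known from the nervous system. miR-129 had 499, 243, 303, 651 and 308 RPM in marrow. Brain was higher, with a median of 1129 RPM, while testis, next in order, had 18.9. The marrow change was 5.82 ± 0.31 (adjusted p = 1.48e-25), and marrow was higher than 13 tissues and lower than brain. miR-129-1-3p, the other arm of the first miR-129 hairpin, followed with 160, 100.4, 135, 328 and 143 RPM and a change of 6.22 ± 0.29 (adjusted p = 2.93e-27). With the solid samples as 1 group cfa-miR-129 (2.23) and hsa-miR-129-1-3p (2.54) were not called. The 3p arm of the second hairpin, miR-129-2-3p, had 6 marrow reads against 779 RPM in brain, and did not pass (0.13 ± 0.64). miR-7, a miRNA of neurons and endocrine cells, had 185, 167, 357, 222 and 138 RPM in marrow, a brain median of 224 and a pancreas median of 40.4, with a change of 3.55 ± 0.27 (adjusted p = 1.21e-17). The remaining neural markers were not high: miR-124 had no marrow read, and miR-9, miR-128, miR-132 and miR-138a were lower. The call of cfa-miR-128 (−1.12 ± 0.36) was lost in 7 settings, among them library totals (−0.63), RLE, DESeq2, thinned reads and the fit without brain.

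Most of the let-7 family was lower. let-7 miRNAs act against proliferation and are blocked from maturing by LIN28 in early cells. Of 8 members tested, 6 were lower (5 with library totals), 1, miR-98, was higher, and let-7c did not pass. let-7g had 992, 728, 1103, 857 and 727 RPM, with a lowest solid sample of 915 RPM, and fell by 2.72 ± 0.18 on the log2 scale (adjusted p = 2.21e-20). let-7e had 160, 142, 130, 89.9 and 138 RPM against 5563 in brain, and its change was −3.19 ± 0.29. let-7g, let-7e and let-7d-5p were lower in marrow than in each of the 14 tissues. let-7b (−1.71), let-7f (−1.21) and let-7a (−0.73) were lower by less, and the call of let-7a was lost with library totals, RLE factors, DESeq2, thinned reads and the 100 RPM filter. miR-98, a let-7 family member encoded on the X chromosome, had 9125, 6535, 7031, 10521 and 7238 RPM, and the highest solid sample, from duodenum, had 6590. Its change was 2.39 ± 0.20 (adjusted p = 1.04e-15), and marrow was higher than 13 tissues. Summed over the family, marrow held 37181 to 54648 RPM, inside the range of the solid samples, 12411 to 145327.

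The list of miRNAs encoded in the HOX clusters was the opposite case in that 3 of 4 tested were higher and none was lower. This list, named for the miR-10 family, holds miR-10a and miR-10b beside miR-196a and miR-196b. Its count is therefore not that of the miR-10 family alone, of which miR-10b was called higher, as described above. miR-196a rose by 2.18 ± 0.39 at 32.4 to 106 RPM, with kidney at 473 RPM, and cfa-miR-10a did not pass (0.70 ± 0.46). For miR-196a and miR-196b the rank-sum test did not pass (adjusted p = 0.519 and 0.474), and with the solid samples as 1 group their changes turned to −1.57 and −0.80, neither called.

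Members of the miR-30 family supplied 3 of the 6 miRNAs below every solid sample. This family is broadly expressed and acts on autophagy and differentiation genes, and it was looked at after its values were seen. miR-30b had 86.3, 71.1, 91.9, 111 and 106 RPM in marrow against 225 to 6004 in solid samples, with a change of −4.26 ± 0.35 (adjusted p = 2.67e-16). miR-30c had 320, 582, 476, 577 and 464 RPM against 827 to 9448 (−2.91 ± 0.26), and miR-30e, the 3p arm of its hairpin, had 55.4, 58.6, 108, 106 and 124 RPM against 217 to 1774 (−3.04 ± 0.30). Heart was the highest tissue for miR-30b and miR-30e, kidney for miR-30c. The more abundant miR-30a, described above, and miR-30e-5p (6502 RPM, −0.37 ± 0.30) lay inside the solid range.

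Most miRNAs of smooth muscle, fibroblasts and epithelium were called lower in marrow than the mean of the tissues. The endothelial miR-126 arms, described above, were not called lower. Of the 4 smooth muscle miRNAs tested 3 were lower, and 2 with library totals. miR-143 had 16432, 16530, 12079, 14134 and 17414 RPM, against a colon median of 352130 and a pancreas median of 16595, and its change was −3.05 ± 0.48. miR-145, its partner, changed by −3.28 ± 0.54, while its 3p arm did not pass. All 5 of the fibroblast miR-199 and miR-214 entries tested were lower by edgeR, by 0.67 to 2.46 on the log2 scale, but 2 with library totals. Their summed level of 1608 to 2389 RPM in marrow lay inside the range of the solid samples, 149 to 9540. The call of cfa-miR-199 was lost without marrow sample 1 (adjusted p = 0.0752), and that of miR-199a-5p in 86 of 93 settings.

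The miR-200 family, which maintains the epithelial state, had few or no marrow reads apart from miR-141. miR-200b-3p, with 3112 RPM in colon and 2883 in pancreas, had no read in 992876 marrow reads, which makes it at least 320-fold lower than the mean of the solid samples. miR-429 was at least 98.6-fold lower and miR-200a at least 12.6-fold lower, on the same footing. The edgeR calls of these last rested on single libraries: without sciatic nerve sample 1 or skeletal muscle sample 3 the adjusted p of both became 1.00, and without the former that of miR-200a-3p did as well. In the list 5 of 7 were lower, and the median log2 change was −6.28, or −4.67 with the 0-read members at their limit. An exception in level was miR-141, with 129 to 308 RPM in marrow and 196 reads, which did not pass (−1.89 ± 0.89, adjusted p = 0.0798). Of the 5 miRNAs of intestinal, hepatic and squamous epithelium, 4 were lower: miR-192 (−3.52 ± 0.52, 1676 RPM in marrow and 302243 in jejunum), miR-194, miR-203 and miR-215. miR-205 had no marrow read and did not pass.

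Markers of the pancreas and liver were at or near 0 reads, while muscle and brain markers were mixed. miR-375, a miRNA of pancreatic islets and other endocrine cells, had 18.5, 4.18, 0, 10.6 and 18.4 RPM in marrow and 148274 in pancreas (−6.81 ± 0.98, adjusted p = 2.62e-08). miR-182, high in sensory and epithelial cells, had 8.37 to 27.6 RPM and was lower than 13 tissues (−6.72 ± 1.16). The liver miRNA miR-122 had 2 marrow reads and the pancreatic miR-216a, miR-216b and miR-217 none. None of these 4 passed the test, with adjusted p from 0.110 to 0.247. Of the muscle miRNAs, miR-133a (26.5 to 299 RPM, −2.62 ± 0.69) and miR-499 (−1.95 ± 0.55) were lower, and 5 of the 7 tested did not pass. That is near the 28.3% of all tested miRNAs called lower, and the list median of −1.05 was that of all of them. The summed muscle level was 37.0 to 336 RPM in marrow. miR-138a, a brain miRNA with 6594 RPM there, had no marrow read and was at least 153-fold lower than the mean of the solid samples. miR-212-3p, also highest in brain, was at least 15.3-fold lower, miR-3958 at least 16.9-fold and miR-874-5p at least 5.78-fold.

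The imprinted DLK1-DIO3 cluster had few marrow reads. It is expressed from the maternal chromosome, mostly in brain and in development. Of its 44 members detected in the atlas, 34 had no marrow read, where 268 of all 650 miRNAs had none. Of 34 tested, 13 were lower and none higher, where 28.3% of all tested miRNAs were lower, with a median log2 change of −4.38 as fitted and −1.36 with the 0-read members at their limit. With library totals 8 of the 34 were lower, beside 93 of all 473. miR-127, its most abundant member in brain at 44471 RPM, had 43.1, 41.8, 21.6, 31.7 and 27.6 RPM in marrow and a change of −5.72 ± 0.88 (adjusted p = 1.47e-07). miR-380 was at least 67.5-fold lower, miR-889 at least 49.6-fold and miR-487b at least 12.3-fold. Summed over the cluster, marrow samples had 43.2 to 96.2 RPM and solid samples 61.7 to 83742. For members at 0 reads a marrow level under 3.02 RPM was not detectable at this depth. The study's reference miRNAs, used as less variable across tissues, also differed: miR-16 was higher (0.95 ± 0.23), miR-29a lower (−1.27 ± 0.27) and miR-186 did not pass.

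**Figure D3:**
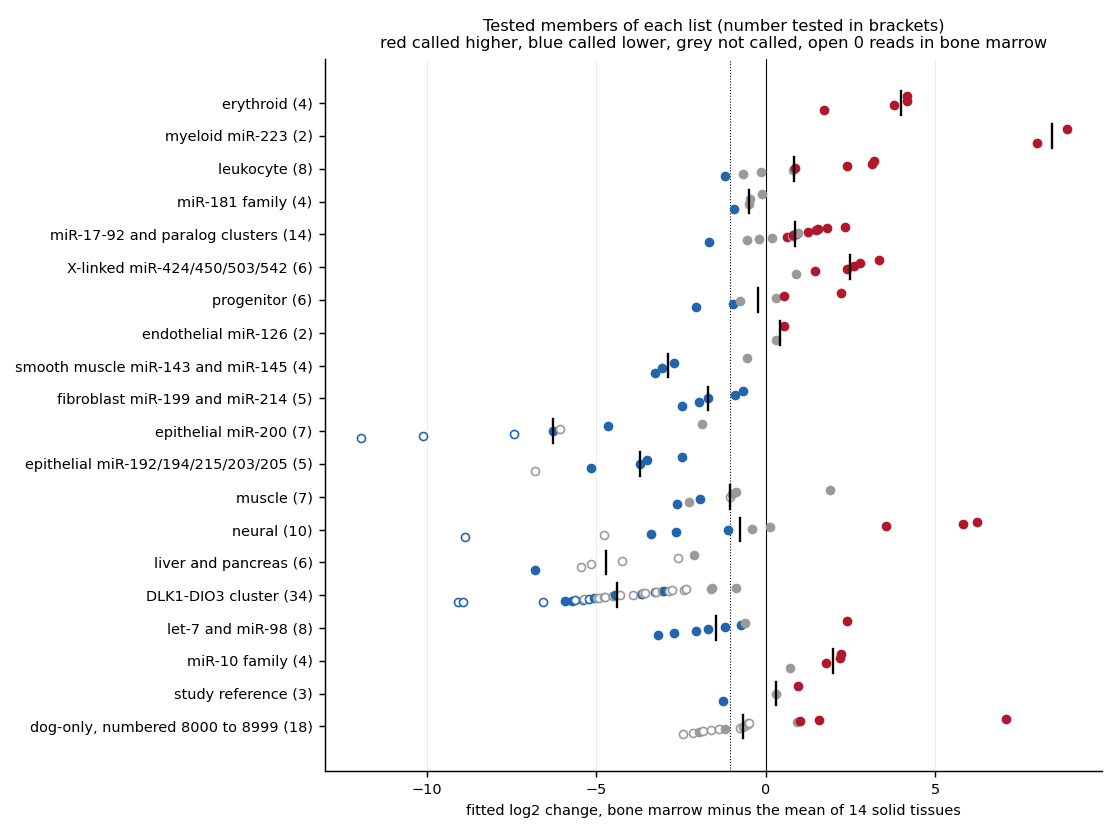
Fitted log2 change of each tested member of 20 lists, with the number tested in brackets, a black bar at the list median and a dotted line at the median of all 473. Red members were higher, blue lower and grey not called, and open circles had 0 reads in marrow. The erythroid, miR-223 and X-linked lists lie right of 0 and the smooth muscle, fibroblast, epithelial and DLK1-DIO3 lists left of it. miR-98 and miR-92a stand on the other side from most of their lists.

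Against single tissues, 32 miRNAs were higher in marrow than in at least 10 of the 14 (6.77% of the 473), and 11 were higher than in all 14 (2.33%). These 11 were miR-223, miR-223-5p, miR-451, miR-26a, miR-374b, miR-106b-3p, miR-140-5p, miR-8865, miR-345, miR-4444 and miR-3064-3p, the last 3 on 18, 7 and 7 marrow reads. In the other direction 25 were lower than in all 14 (5.29%), among them miR-30b, miR-30c, miR-30e, let-7g, let-7e, miR-132, miR-380 and miR-889. These 14 contrasts share the marrow samples. The number of calls ran from 156 against jejunum and 166 against colon to 252 against testis and 336 against brain.

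The order of likeness followed those counts in part. Between marrow samples the Spearman correlation of RPM across the 650 miRNAs averaged 0.881, and between marrow and solid samples 0.7501, as a description across miRNAs in libraries of different depth. It was highest with lung (0.8001), ileum (0.795) and liver (0.793) and lowest with testis (0.694) and brain (0.603). Thymus, where T cells mature, stood eighth of 14 at 0.761, and its samples spread from 0.696 to 0.814. Against thymus, 46 miRNAs were higher in marrow and 138 lower. miR-223 was higher by 7.67 and miR-451 by 4.17 on the log2 scale, while miR-181a, known for its part in T cell selection, changed by −3.26. The thymus samples were uneven: miR-181a ran from 41991 to 500018 RPM with a median of 53348, each above the highest marrow sample at 38765, and miR-142 was at 14022 and 8991 RPM in 2 samples and at 234 to 335 in the other 3.

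**Figure D4:**
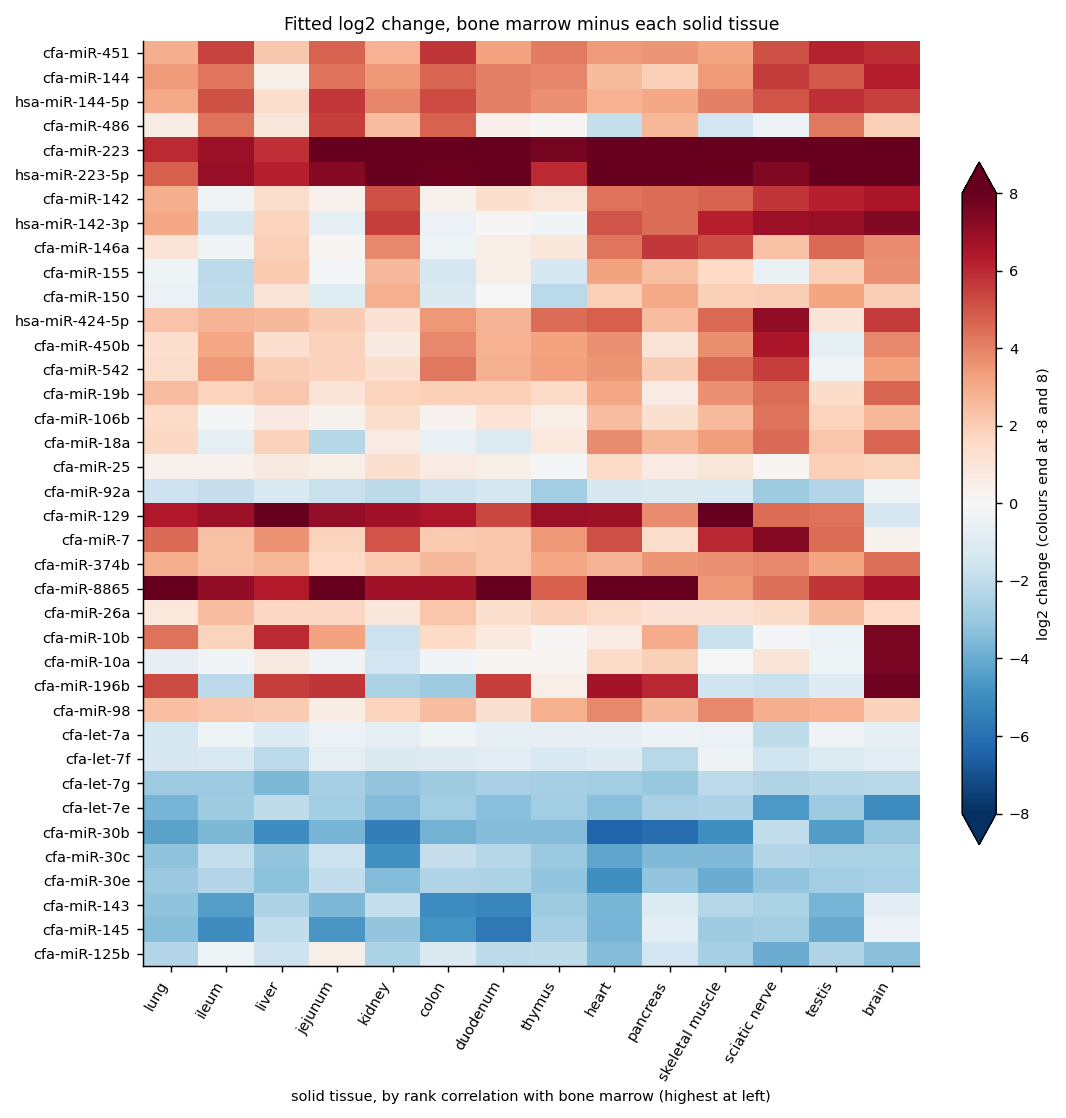
Fitted log2 change of 38 named miRNAs, bone marrow minus each of the 14 solid tissues, in red where marrow was higher and blue where it was lower, with colours ending at −8 and 8. miR-451, miR-223, miR-26a and miR-374b are red in all 14 columns and miR-30b, miR-30c, miR-30e, let-7e and let-7g blue, while miR-142, miR-155, miR-486, miR-10b and miR-196b change colour between tissues.

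Neither the concentration of reads nor the number of miRNAs at equal depth separated marrow from the solid tissues by the test. The 10 most abundant miRNAs took a median of 77.3% of the reads in marrow and 74.4% in solid samples (exact rank-sum p = 0.504, two-sided). With each library thinned to 158069 reads, a median of 283 miRNAs were detected in marrow and 284 in solid samples (exact rank-sum p = 0.581). With all reads, marrow had 293 and solid samples 405 (exact rank-sum p = 6.11e-05). The p-values that miss the threshold do not show equality, and the marrow range at equal depth was 270 to 289, with up to 395 in a solid sample.

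Finally, the ratio of the 2 arms of a hairpin was compared, since it needs no scaling between libraries. Among 77 hairpins with enough reads, 23 (29.9%) were shifted toward the 5p arm in marrow and 17 (22.1%) toward the 3p arm, and 2 (2.6%) lay outside every solid sample. Many of these rest on an arm with 0 to 3 reads in the shallow marrow libraries, where depth itself bounds the ratio. The largest shifts to 5p were those of miR-26b (3.95 on the log2 scale), miR-320 (3.16), miR-23b (2.66), miR-30e (2.45) and miR-10a (2.42), and in miR-26b, miR-320 and miR-23b the median marrow sample had no read of the minor arm. The largest shifts to 3p were let-7g (−4.52), miR-148b (−3.34), miR-146b (−3.01), miR-192 (−2.79) and miR-145 (−2.52). let-7g had a median of 2 reads of its 3p arm, and its marrow depth allowed a ratio of at most 8.69 when the solid median was 10.87. In miR-146b and miR-192 the median marrow sample had no 3p read, and the depth allowed at most 6.97 and 10.001 against solid medians of 9.69 and 12.31. In miR-320 and miR-23b it allowed no ratio below −7.84 and −8.67 against solid medians of −10.69 and −10.85. The direction of the shifts of miR-146b, miR-192, miR-320 and miR-23b is thus set by depth and cannot be read as a difference between the tissues. In let-7g the marrow ratios of 5.28 to 6.76 lay under the limit of 8.69, with at least 1 read of the 3p arm in each marrow sample. That shift rests on few reads of the 3p arm, and the part of depth in it was not tested.

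A stricter set left 20 hairpins with at least 3 reads of each arm in every marrow sample, and the counts were also thinned to equal depth, a choice made after the data were seen. The rule made no such demand on solid samples, so it favoured hairpins whose minor arm was high in marrow. Of the 20 hairpins, 12 passed with all reads and 12 when thinned, 11 of them in both and in the same direction. miR-30e had a log2 ratio of 5p to 3p of 5.20 to 7.21 in marrow, above every solid sample (1.117 to 4.77, adjusted p = 5.91e-06, exact rank-sum test). At equal depth the call held but the groups touched, with a lowest marrow sample of 5.14 and a highest solid sample of 5.18. miR-30a shifted the same way, with a median of 7.21 against 5.57, and so did miR-140, miR-378a, miR-148a, miR-181c and miR-28. miR-145 had 0.06 to 1.02 in marrow against a solid median of 2.97, and in the edgeR test its 5p arm was lower while its 3p arm did not pass. let-7d, let-7a and miR-181a also moved toward 3p. The shifts of miR-140, miR-378a, miR-148a, miR-28, miR-145, let-7d, let-7a and miR-181a went toward the minor arm, which the rule favours. Those of miR-30e, miR-30a and miR-181c went toward the major arm. The part of the rule in these shifts was not tested. In miR-142, miR-126 and miR-199a the medians differed by 0.26 or less and the test did not pass.

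**Figure D5:**
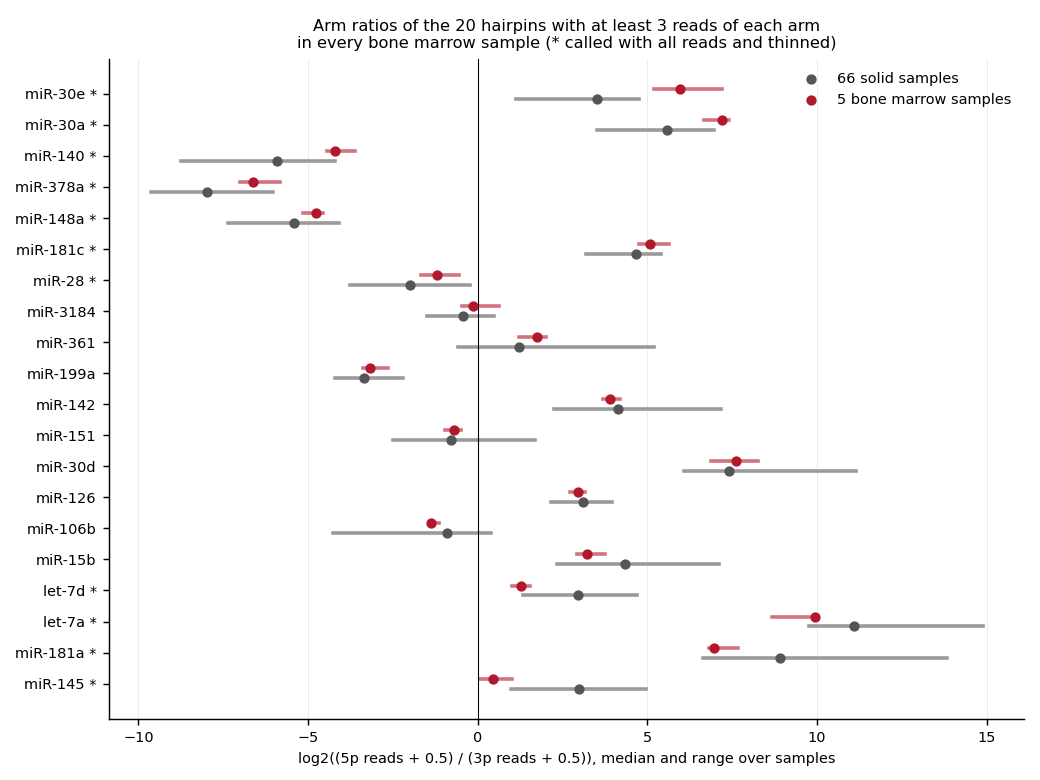
Log2 ratio of 5p to 3p reads in 20 hairpins, as the median (point) and range (line) over 5 marrow samples in red and 66 solid samples in grey, with a star where the call held with all reads and thinned. The marrow line of miR-30e lies right of the grey line, those of miR-145 and let-7d lie at its left end, and those of miR-142 and miR-126 lie within it.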

How the data were processed

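miR-seq data of 76 libraries were used, 5 of bone marrow and 66 of solid tissues in the comparison and 5 of plasma for side values. The table also holds 1 sample name that matches no single labelled sample, which was left out, and 1 labelled colon sample is not analysed here. The authors clipped adaptors, aligned reads to the dog genome (CanFam3.1 in the submitters' processing notes) without mismatches, dropped reads with many locations, and counted with bedtools the reads over known or putative miRNA loci of dog, rat and human. The deposited values are raw counts and, by the authors, RPM, the count scaled to the reads on miRNAs of the library. Recomputed RPM differed from the deposited by at most 2.89e-09 as a relative difference. Counts of a library summed to 0.0449% to 1.16% more than its total, since some reads count for more than 1 miRNA. The deposited highest RPM per miRNA was not used.

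Counts were fitted with edgeR 4.0.16 in R 4.3.3 (TMM, filterByExpr, quasi-likelihood F test, 1 mean per tissue, Benjamini-Hochberg over the 473 miRNAs tested, threshold 0.05). Errors are SE of the log2 change. Rank-sum tests were exact, two-sided and on midranks, adjusted over 649 miRNAs. Arm ratios were log2((5p + 0.5)/(3p + 0.5)) for hairpins with at least 20 reads over both arms in at least 4 marrow samples and in most solid samples, adjusted over 77. A count of 0 was read as at most 3 reads, which covers counting error only. The edgeR fit was also run on simulated counts with known changes. It called 34.3% of 2-fold, 66.2% of 5-fold and 68.9% of 10-fold changes in the right direction, and 2.66% of unchanged miRNAs. An miRNA that did not pass may therefore still differ.

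The members, lists and tests were chosen with earlier results of these data known. Named are the 15 largest rises and 12 largest falls among calls above 100 RPM in a tissue, the rank-sum calls above 100 RPM in marrow, the 10 most abundant, list members, the miRNAs the study names for marrow and the 5 largest arm shifts each way. Short names keep the first of the joined names, and cfa- is dropped in the text. Names of neighbouring genes come from RefSeq (UU_Cfam_GSD_1.0), another build than the files. No mature sequences were used here, so none are shown and the planned description of GC content was not run. Alternatives covered scaling, DESeq2 1.42.0, filters, design, tissues, depth and samples left out. Python was 3.11.15 with pandas 2.3.3, scipy 1.17.1 and matplotlib 3.10.9.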

Additional observations from a re-analysis of the deposited data

Results flagged for a closer look

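Among the 65 named miRNAs with marrow reads enough to check, 3 had a marrow sample far from the other 4 by Dixon's criterion, which chance alone meets in about 1 of 20 groups. miR-10b was lowest in marrow sample 1 at 217171 RPM, with the others from 300029 to 327584. miR-146b was lowest in sample 4 at 206 RPM. miR-129-1-3p was highest in sample 4 at 328 RPM.

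In the plasma libraries, which the comparison did not use, 5 of the 11 miRNAs above every solid sample in marrow also had a median above the highest solid sample. The plasma medians were 82461 RPM for miR-451, 1062 for miR-144-5p, 699 for miR-106b-3p, 259 for miR-223 and 28.8 for miR-371. For miR-451, miR-144-5p, miR-106b-3p and miR-371 these exceeded the marrow medians of 38793, 778, 529 and 18.4 RPM. For miR-223 plasma was below marrow, at 3686 RPM. The other 6 miRNAs had plasma medians within the range of solid samples. Whether any blood in the marrow samples takes part in these levels was not tested.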

How the results depend on the processing

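Of the 84 named miRNAs called by edgeR, 46 kept direction and call in each of the 93 settings run, 14 higher and 32 lower. Reversals came with the solid samples as 1 group, where cfa-miR-155 changed by −0.086, cfa-miR-196b by −0.80 and cfa-miR-196a by −1.57, none of them called. In that setting 32 miRNAs were higher (15 past 5-fold). With reads thinned to the smallest library 82 were lower, 19 were higher and 36 lower past 5-fold, the rank-sum test called 35 lower, 3 lay below every solid sample, and 8 hairpins shifted to 3p. Past 5-fold, 47 were lower with library totals, 46 with RLE, 44 above 100 RPM and 50 with DESeq2. The rank-sum test called 39 higher by medians and 12 above 100 RPM. Without brain 17 lay above every solid sample, without skeletal muscle 11 below, and with TMM-scaled RPM 16 below. With at least 100 reads 15 hairpins shifted to 5p and 9 to 3p, and in the stricter set added later 8 and 4. Detection without thinning differed by −112 (exact p = 6.11e-05). The cause of these shifts was not tested, apart from fewer features or reads where a filter or thinning removed them.

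Leaving out any 1 marrow or solid sample, edgeR called 70 to 89 higher and 108 to 135 lower, 27 to 35 and 65 to 80 past 5-fold. The other results were rerun without single marrow samples only, not without single solid samples. The rank-sum test then called 20 to 27 higher and 58 to 64 lower, where the full set gave 24 and 84. Above every solid sample lay 11 to 14 and below 6 to 8. Of the hairpins 18 to 22 shifted to 5p and 13 to 16 to 3p, where the full set gave 23 and 17. The top share differed by 0.95 to 3.27 points and detection by −5.5 to 0. No paired analysis was possible because the labels carry no dog number. An miRNA under 3.02 RPM over the group was not detectable at this depth.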
